A study of Mus musculus with 12 samples.

Results

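The transcripts of 10 lipid droplet and triglyceride storage genes were examined in liver tumours of mice labelled Pck1-null or wild type. The genes were Agpat2, Gpam, Mogat1, Plin2, Plin4, Plin5, Cidec, Cidea, G0s2 and Cd36. They were taken by symbol, and all 10 were found among the 46095 genes of the deposited count table. The 12 libraries were made from RNA of hepatocellular carcinomas induced with diethylnitrosamine, a carcinogen that hepatocytes activate into a DNA-alkylating agent. The KO group held 7 libraries from Pck1-null mice, and the WT group held 5 libraries from wild-type mice given the same carcinogen. The labels give no strain, age, sex or allele design, and they do not say whether each library came from a separate animal. The p-values therefore measure the spread between these libraries. The comparison asked how loss of Pck1, the cytosolic phosphoenolpyruvate carboxykinase, is reflected in the tumour transcriptome.

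Hepatocytes store surplus fatty acids as triglyceride in lipid droplets, which bud from the endoplasmic reticulum with a neutral lipid core and a protein coat. Acyltransferases build the glycerolipid, perilipins coat the droplet and control access of lipases, and CIDE proteins sit where droplets touch and pass lipid from the smaller to the larger droplet. Several of these genes are low in lean liver, high in fatty liver and highest in adipose tissue, and many are targets of the PPAR nuclear receptors. Pck1 itself can feed this store, since its product can be turned into the phosphorylated glycerol onto which fatty acids are esterified.

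Total counts ran from 17462102 to 46747125 per library, with 7 libraries at 17462102 to 23663506 (4 KO and 3 WT, called shallower) and 5 at 43071365 to 46747125 (3 KO and 2 WT, called deeper). Levels are given as CPM, counts scaled to a common library size after TMM scaling. Pck1 was at 111 to 1165 CPM in KO with a median of 219, and at 1695, 5592, 5594, 1061 and 5816 CPM in WT replicates 1 to 5. Every WT library exceeded 6 of the 7 KO libraries, and KO replicate 3 exceeded only WT replicate 4. The difference was −3.28 ± 0.67 (log2, SE, edgeR adjusted p = 0.170). Xist, transcribed from the inactive X chromosome, was at 90.9 to 167 CPM in 6 libraries (5 KO, and WT replicate 4) and at most 0.702 CPM in the other 6 (2 KO and 4 WT). The hepatocyte markers summed to 79965 to 269415 CPM over the 12 libraries, with no library near 0. In such bulk tissue, fewer cells of a type and less RNA per cell cannot be told apart.

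In the comparison of KO with WT, 0 of the lipid droplet genes had an adjusted p under 0.05. Of the 10 genes, 9 had enough counts to be tested, 8 of them with a negative log2 fold change (KO minus WT) and 1 with a positive one. Their median was −0.53, against 0.03 over all 14666 genes tested, of which 46.3% were negative. Over all genes, edgeR's quasi-likelihood test called 0.0% higher and 0.0% lower in KO after adjustment. Without adjustment, 7.25% of all genes were higher and 7.44% lower (p under 0.05). By that looser measure 2 lipid droplet genes were lower, Agpat2 and Cidea, and 0 were higher. Leaving out WT replicate 4 alone left 4 of the 9 genes negative and 5 positive, with a median of 0.13. Leaving out both WT replicate 4 and KO replicate 6 left 5 negative and 4 positive, with a median of −0.33. The deeper libraries, which do not hold WT replicate 4, had 6 of 10 genes negative (median −0.26). The libraries with low Xist, which also lack it, had 5 of 10 negative (median −0.08). For no gene of the 10 did the 2 groups separate without overlap, which happened for 0.634% of all genes in the direction of higher and 0.58% in the direction of lower KO levels.

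**Figure D1:**
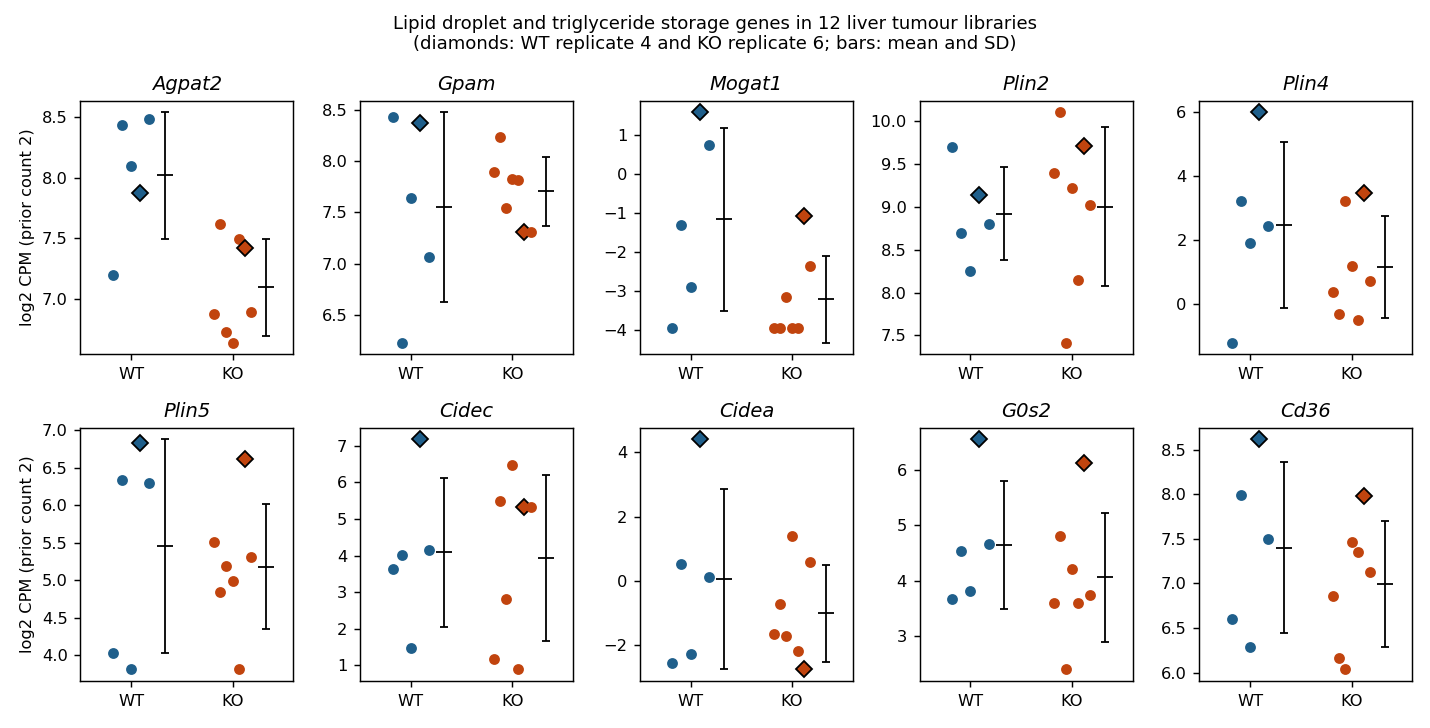
Level of each of the 10 genes in the 5 WT and 7 KO libraries, as log2 CPM with a prior count of 2, 1 point per library, with the mean and SD of each group beside the points. WT replicate 4 (blue diamond) is the highest library for 7 genes, and Agpat2 is the gene whose KO libraries all lie below the WT mean.

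Of the 9 genes tested, the acyltransferase gene Agpat2 had the smallest p. It adds the fatty acid at the middle position of the glycerol backbone, and its loss in humans causes lipodystrophy. The gene lies on chromosome 2 from 26593057 to 26604417 (GRCm38, minus strand). In KO, Agpat2 was at 99.9 to 196 CPM with a median of 119. In WT replicates 1 to 5 it was at 147, 346, 274, 235 and 357 CPM. All 7 KO libraries lay below the WT mean and 4 lay below all WT libraries, while WT replicate 1 lay below KO replicates 2, 5 and 6. Mean log2 CPM came to 7.10 ± 0.40 for the KO libraries (SD, n = 7) against 8.02 ± 0.52 for the WT libraries (SD, n = 5). EdgeR's quasi-likelihood test put the log2 difference at −0.94 ± 0.25 (SE), or 1.92-fold less in KO, with an adjusted p = 0.195. DESeq2 called Agpat2 lower (adjusted p = 0.0204), as did limma-voom with sample weights (−1.24, adjusted p = 0.0128), tools that called 1.65% and 8.13% of all genes lower and 1.68% and 6.33% higher. Without weights, limma-voom called 0.0273% of all genes lower and 0.00682% higher, and Agpat2 had an adjusted p = 0.188. The difference of mean log2 CPM was −0.70 among the shallower and −1.27 among the deeper libraries, −1.28 among the Xist-low and −0.65 among the Xist-high ones (1 WT library). It was negative in all 28 alternative fits, from −1.34 to −0.64. Exons of Agpat2 share 64 of their 2130 bases with exons of Egfl7 on the opposite strand, whose reads cannot be told apart without strand.

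Gpam, the mitochondrial enzyme that adds the first fatty acid and so commits it to glycerolipid, differed little between the group means. It was at 158 to 301 CPM in KO with a median of 225, and at 345, 75.0, 200, 330 and 134 CPM in WT replicates 1 to 5. The KO libraries all lay inside the WT range, which had libraries on both sides of them. The fitted difference was −0.02 ± 0.33 (SE, edgeR adjusted p = 0.981). It was −0.40 ± 0.30 within the shallower libraries and 0.96 ± 0.35 within the deeper ones (edgeR adjusted p = 0.634 and 0.359).

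Mogat1, which acylates monoacylglycerol and is known for its induction in fatty liver, was close to its detection limit in most tumours. In WT replicates 1 to 5 it had 0, 15, 1, 62 and 65 counts. In KO it had 19 counts in replicate 6, 3 in replicate 7, 1 in replicate 3 and 0 in the other 4 libraries. A count of 0 allows up to 3 counts, or 0.0535 to 0.161 CPM in these 5 libraries, covering counting error only. WT replicates 4 and 5, at 2.95 and 1.63 CPM, lay above every KO library, of which the highest had 0.409 CPM. The gene did not pass the filter on low counts. Tested without that filter it differed by −3.43 ± 1.28 (SE, edgeR adjusted p = 0.363). Its exons share 200 of 1558 bases with the opposite-strand gene BC035947, and how many of these few reads come from that gene was not tested.

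The 3 perilipins differed from each other in level and in spread. Plin2, the coat protein of droplets in most cells including hepatocytes, was at 171 to 1102 CPM in KO with a median of 599, and at 835, 416, 306, 566 and 448 CPM in WT replicates 1 to 5. Both the lowest library, KO replicate 3, and the highest, KO replicate 2, were KO libraries. The fitted difference was 0.22 ± 0.41 (SE, edgeR adjusted p = 0.830).

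Plin5, the perilipin that tethers droplets to mitochondria in oxidative tissues, was at 14.1 to 98.1 CPM in KO with a median of 36.6. In WT replicates 1 to 5 it was at 16.3, 80.7, 13.97, 113 and 78.5 CPM, so that WT replicate 4 lay above every KO library, WT replicates 2 and 5 above all but KO replicate 6, and WT replicates 1 and 3 at the low end. The fitted difference was −0.53 ± 0.55 (SE, edgeR adjusted p = 0.664), with −0.18 ± 0.57 when WT replicate 4 was left out. Plin4, a perilipin of adipocyte and muscle droplets, was at 0.642 to 10.98 CPM in KO with a median of 1.58. In WT replicates 1 to 5 it was at 0.373, 9.25, 3.72, 63.5 and 5.35 CPM. Plin4 thus spanned 170-fold between the lowest and highest of the 12 libraries, both of them WT. The lowest level rests on 7 counts in WT replicate 1, and KO replicate 2 had 14 counts. Its fitted difference was −2.11 ± 1.04 (SE, edgeR adjusted p = 0.369), with −0.30 ± 0.91 when WT replicate 4 was left out.

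Plin4 and Plin5 are neighbours on chromosome 17 with 1797 bases between them, Plin4 from 56100591 to 56109803 and Plin5 from 56111601 to 56117596, both on the minus strand. The 250 bases before the Plin2 and Plin4 starts are shown (RefSeq, GRCm38.p6, both genes on the minus strand, read 5′ to 3′ on the gene's strand). They were chosen because Plin2 had the highest and Plin4 the lowest median level per length among Plin2, Plin4 and Plin5. Capitals mark matches on either strand to TATAA, the core of the TATA box, to CCAAT, and to AGGTCA, the half-site of nuclear receptors.
Plin2, chr4:86670060-86670309: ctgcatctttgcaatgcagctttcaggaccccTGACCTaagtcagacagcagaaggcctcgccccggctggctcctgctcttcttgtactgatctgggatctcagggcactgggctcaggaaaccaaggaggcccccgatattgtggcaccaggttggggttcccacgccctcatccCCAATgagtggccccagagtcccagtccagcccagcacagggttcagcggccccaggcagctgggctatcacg
Plin4, chr17:56109783-56110032: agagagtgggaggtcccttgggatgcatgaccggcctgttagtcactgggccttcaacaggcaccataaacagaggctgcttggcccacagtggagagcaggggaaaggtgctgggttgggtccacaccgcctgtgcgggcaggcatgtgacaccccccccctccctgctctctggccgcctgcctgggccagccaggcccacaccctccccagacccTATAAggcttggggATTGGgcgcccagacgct
A TATAA match ends 28 bases before the Plin4 start, and none was in the Plin2 window. Plin2 holds an AGGTCA match on the opposite strand, 213 bases before the start at its nearest base, and both windows hold CCAAT. Over 32851 promoter windows of this length 22.8% hold TATAA, 33.8% hold CCAAT and 4607 windows hold AGGTCA. A direct repeat of that half-site with 1 base between the copies, the element to which PPARs bind with RXR, is in 0.0335% of windows and in none of the windows of the 9 genes with an entry. These are matches of letters in a short window, and binding was not measured.

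The CIDE genes also ranged widely, with 80.7-fold for Cidec and 247-fold for Cidea between the lowest and highest of the 12 libraries. The lowest Cidea level rests on 4 counts. Cidec, also known as Fsp27, enlarges droplets in adipocytes and in fatty hepatocytes. It was at 2.22, 44.5, 6.93, 88.4, 1.79, 39.7 and 40.0 CPM in KO replicates 1 to 7, with 4 libraries at 39.7 CPM or more and 3 at 6.93 CPM or less. In WT replicates 1 to 5 it was at 12.4, 16.0, 2.74, 145 and 17.8 CPM. The fitted difference over all libraries was −0.28 ± 1.02 (SE, edgeR adjusted p = 0.920), and the sign turned when WT replicate 4 was left out, to 1.38 ± 0.98 (adjusted p = 0.532). Within the Xist-low libraries, which do not hold WT replicate 4, both KO libraries lay above all 4 WT libraries, with a difference of 2.40 ± 0.62 (edgeR adjusted p = 0.139). Within the Xist-high libraries, whose only WT library is WT replicate 4, the Cidec difference had the opposite sign, at −2.96. With the Xist class as a covariate over all libraries it was −0.16 ± 1.12 (edgeR adjusted p = 0.966).

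Cidea, the family member typical of brown fat and of steatotic liver, was near its detection limit in most tumours and high in WT replicate 4. It had 446 counts, or 21.2 CPM, in WT replicate 4, against 0.107, 1.39, 0.140 and 1.03 CPM in WT replicates 1, 2, 3 and 5. In KO it was at 0.0861 to 2.55 CPM with a median of 0.251. The fitted difference of −2.64 ± 1.21 (SE, edgeR adjusted p = 0.337) became 0.13 ± 0.97 (adjusted p = 0.963) without WT replicate 4. KO replicates 4 and 7 had the highest Cidea in KO, at 2.55 and 1.45 CPM, and were among the 4 KO libraries with the high Cidec levels.

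G0s2 and Cd36 act on the breakdown of stored lipid and the uptake of new lipid. G0s2, the inhibitor of adipose triglyceride lipase, was at 5.19 to 69.8 CPM in KO with a median of 13.3, and at 12.6, 23.0, 13.97, 94.0 and 25.2 CPM in WT replicates 1 to 5. KO replicate 6 and WT replicate 4 stood above the rest of their groups, and the next highest library had 27.8 CPM. The fitted difference was −0.57 ± 0.64 (SE, edgeR adjusted p = 0.693), with 0.28 ± 0.59 without WT replicate 4 and −1.19 ± 0.55 without KO replicate 6 (adjusted p = 0.851 and 0.261). Pnpla2, which encodes that lipase, differed by 0.55 ± 0.32 (adjusted p = 0.437).

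Cd36, the fatty acid translocase, is made by hepatocytes, endothelial cells and macrophages. It was at 65.6 to 253 CPM in KO with a median of 140, and at 97.3, 255, 78.3, 393 and 181 CPM in WT replicates 1 to 5. The fitted difference was −0.51 ± 0.43 (SE, edgeR adjusted p = 0.582), with −0.12 ± 0.41 without WT replicate 4. All 8 endothelial markers measured had a negative fold change and none passed. Their summed level was 156 to 575 CPM in KO, with a median of 221, and 371 to 542 CPM in WT, with a median of 398. The 9 Kupffer cell and macrophage markers summed to 330 to 2914 CPM in KO, highest in replicate 6, and to 648 to 1456 CPM in WT. Their part in the Cd36 values was not tested.

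**Figure D2:**
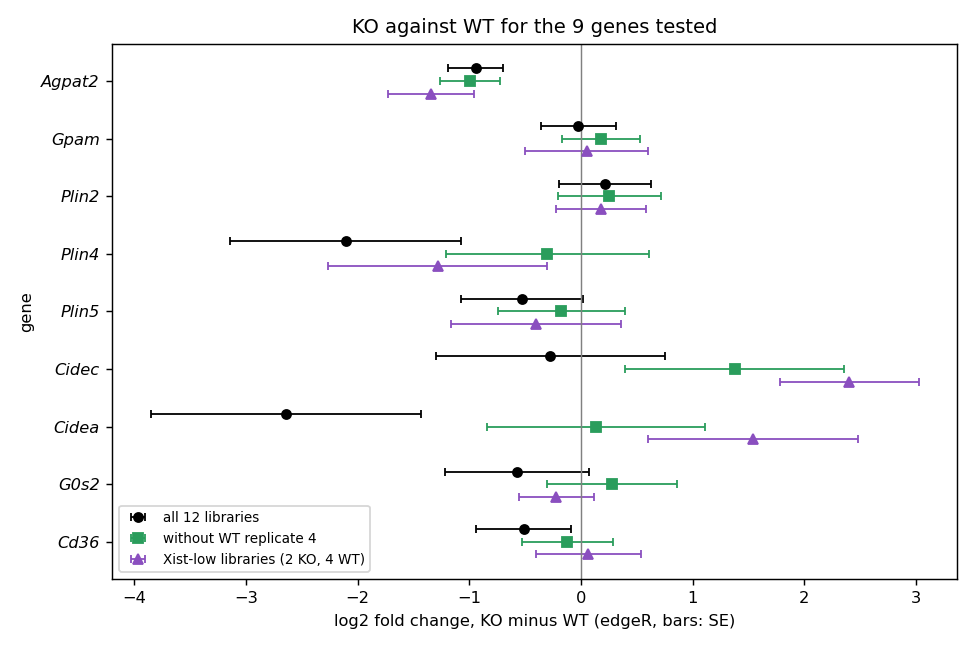
Fitted log2 fold change of KO against WT (edgeR, bars are SE) for the 9 tested genes, over all 12 libraries (black), without WT replicate 4 (green) and in the 2 KO and 4 WT libraries with low Xist (purple). Agpat2 is negative in all 3 fits (−0.94, −0.99 and −1.34), while Cidec, Cidea and Gpam are negative over all libraries and positive in the other fits. Gpam stays near zero over all libraries (−0.02) and in those with low Xist (0.05). G0s2 is positive only without WT replicate 4, and Cd36 only in the libraries with low Xist. The fit in the Xist-high libraries, whose only WT library is WT replicate 4, is not drawn. There Cidec, Cidea and Cd36 came to −2.96, −6.46 and −1.59, and 9 of 10 genes were negative.

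WT replicate 4 was the highest of the 12 libraries for 7 of the 10 genes (Mogat1, Plin4, Plin5, Cidec, Cidea, G0s2 and Cd36). It was also the WT library with the least Pck1 and the only one with high Xist. KO replicate 6 was among the 3 highest libraries for 6 of the 10 genes, and was second to WT replicate 4 for Plin4, Plin5 and G0s2. Its Cidea level was the lowest of all, at 4 counts, but WT replicates 1 and 3 had 2 counts each in shallower libraries. These few counts do not set the 3 apart. KO replicates 3 and 5 and WT replicate 3 lay at the low end, among the 3 lowest libraries for 4, 5 and 5 genes. The hepatocyte markers summed to 82804 CPM in WT replicate 4 and 82178 CPM in KO replicate 6, near the lowest sum of 79965 CPM in WT replicate 2. These sums are mostly Alb and Trf, and the other markers were mixed. In WT replicate 4, KO replicate 6 and WT replicate 2, Hnf4a was at 471, 656 and 706 CPM (medians 516 in KO and 670 in WT). Ahsg was at 3999, 8722 and 8168 CPM there (medians 14771 in KO and 14450 in WT). The part of hepatocyte RNA in the levels of the lipid droplet genes was not tested.

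Markers of adipocytes were measured beside these values, since Cidec, Cidea and Plin4 are adipocyte genes too. In WT replicate 4 the adipokine genes Adipoq, Lep and Retn had 1, 0 and 1 counts and the adipocyte perilipin Plin1 had 0. Fabp4, a lipid chaperone that adipocytes share with endothelium and macrophages, was highest there at 237 CPM, against 17.7 to 118 CPM elsewhere, and Cfd had 62 counts, second to KO replicate 6. The part of adipocyte RNA in the levels of WT replicate 4 and KO replicate 6 was not tested. In KO replicate 6 the traces were larger, with 51 counts of Adipoq, 18 of Plin1, 28 of Retn and 553 of Cfd, while every other library had at most 4 of Adipoq, 1 of Plin1 and 4 of Retn. Ucp1 of brown fat had 0 counts in all 12 libraries. Without both WT replicate 4 and KO replicate 6, 5 of 9 genes were negative, and Agpat2 differed by −1.04 ± 0.28 (SE, edgeR adjusted p = 0.108).

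**Figure D3:**
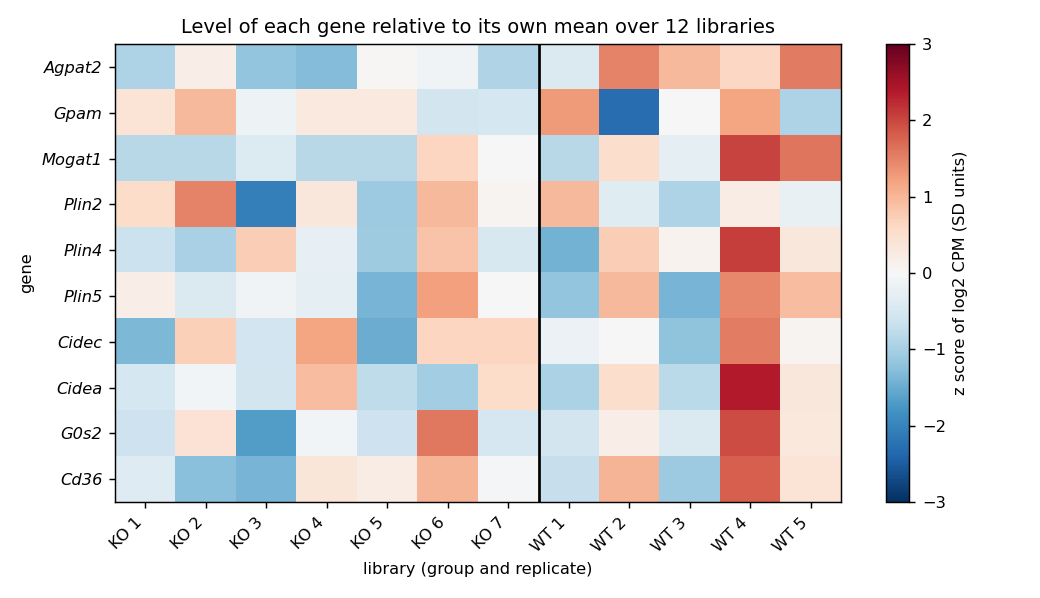
Level of each of the 10 genes in each library as a z score, the log2 CPM minus the gene's mean over the 12 libraries in units of its SD, with KO replicates left and WT replicates right of the line. The column of WT replicate 4 is red in all 10 rows, and the row of Agpat2 is red in 4 of 5 WT columns.

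Of the 45 pairs of genes, 36 had a positive correlation of log2 CPM over the 12 libraries, and 2 passed an adjusted p under 0.05 (permutation test with 100000 resamples, two-sided, adjusted over the 45 pairs). Both involved Mogat1, whose 0 counts tie in 5 libraries. Mogat1 and Plin4 had r = 0.81 (permutation p = 0.00107, adjusted p = 0.0416) and Spearman's rho = 0.84 (permutation p = 0.0015, adjusted p = 0.0675). Mogat1 and Plin5 had r = 0.79 (permutation p = 0.00185, adjusted p = 0.0416) and rho = 0.73 (permutation p = 0.00993, adjusted p = 0.101). Without the 2 libraries farthest from the median of Mogat1, WT replicates 4 and 5, r was 0.78 and 0.72. Without WT replicate 4 and KO replicate 6 it was 0.63 and 0.69. Within KO alone (n = 7) it was 0.70 and 0.77, within the shallower libraries (n = 7) 0.87 and 0.74, and neither pair passed within KO.

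The neighbours Plin4 and Plin5 had r = 0.76 (permutation p = 0.00394, adjusted p = 0.0515) and rho = 0.75 (permutation p = 0.00707, adjusted p = 0.101), with r = 0.63 without WT replicates 1 and 4. G0s2 and Cd36 had r = 0.75 (permutation p = 0.00458, adjusted p = 0.0515) and rho = 0.60 (permutation p = 0.0427, adjusted p = 0.213), and r = 0.46 without WT replicate 4 and KO replicate 6. Cidec and Cidea had r = 0.71 (permutation p = 0.00858, adjusted p = 0.068) and rho = 0.64 (permutation p = 0.0301, adjusted p = 0.198), with r = 0.55 without KO replicate 5 and WT replicate 4. Without WT replicate 4 and KO replicate 6, r was 0.61 for Plin4 and Plin5 and 0.79 for Cidec and Cidea. By rank, 0 of the 45 pairs passed after adjustment. The 9 negative pairs, 5 of them with Gpam, ranged in r from −0.41 to −0.02 over all libraries, the lowest being that of Agpat2 with Gpam. That pair had r = −0.54 without WT replicate 4 and KO replicate 6, 0.29 within KO and 0.39 within the shallower libraries. Gpam with Plin4, Mogat1, Plin5 and Cd36 had r = −0.79, −0.75, −0.71 and −0.64 without WT replicate 4 and KO replicate 6. Within KO these were −0.67, −0.84, −0.54 and −0.47, and within the shallower libraries −0.03, 0.18, 0.12 and 0.32.

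**Figure D4:**
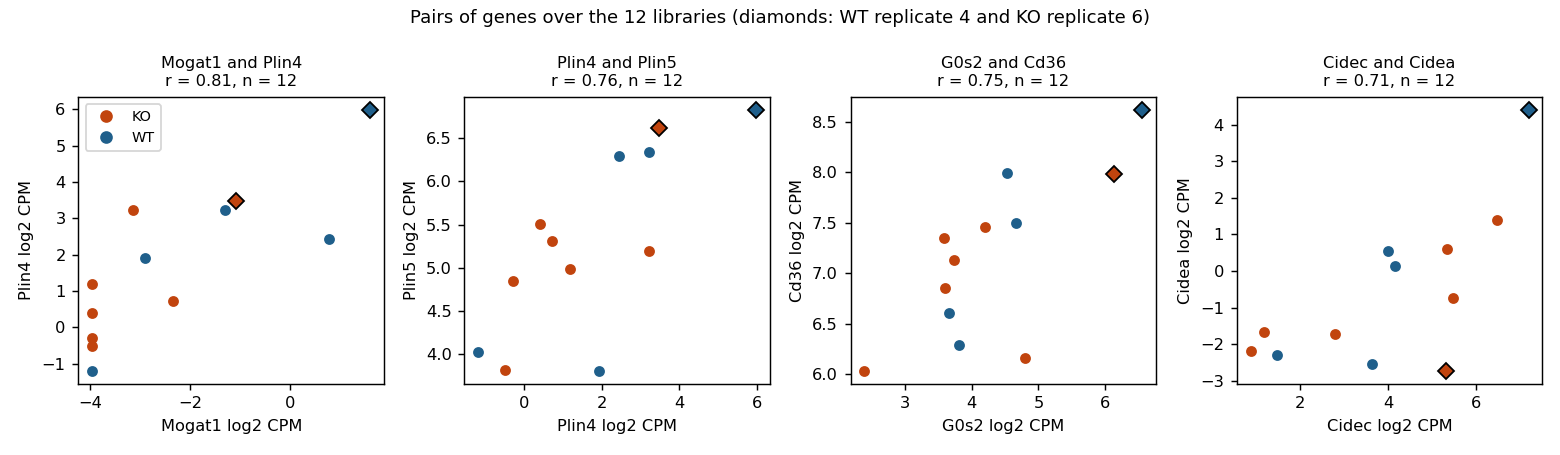
Pairs of genes in log2 CPM, 1 pair per panel, 1 point per library, with KO in orange and WT in blue. WT replicate 4 sits at the upper right in every panel. KO replicate 6 follows it in the first 3 panels but lies at the bottom of the panel of Cidec and Cidea, where its Cidea level rests on 4 counts.

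Of all genes tested, those with the pattern most like Plin5 over the 12 libraries were Slc25a20, the mitochondrial carnitine-acylcarnitine carrier (r = 0.93), and Retsat, a retinol saturase (r = 0.92). For Cd36 the first 3 were Aldh1a7, an aldehyde dehydrogenase (r = 0.93), Tm4sf1 (r = 0.92) and Gpat3 (r = 0.90). Gpat3, which the table lists as Agpat9, adds the first fatty acid in the endoplasmic reticulum. For G0s2 the list held the pattern receptor Tlr2 (r = 0.92), Rpp38 (r = 0.91) and Creb3l3 (r = 0.90), a liver transcription factor of lipid metabolism. For Agpat2 the first 3 were Timd2, Irf2 and Surf1 (r = 0.96, 0.95 and 0.94). The first was Stk38l for Gpam, Chpt1 for Mogat1, G530011O06Rik for Plin2, Stradb for Plin4, Gm6451 for Cidec and St6galnac2 for Cidea (r from 0.90 to 0.93). None of the 10 genes was among the 5 nearest of another. These are the highest of 14666 values over 12 shared libraries and are given as a description.

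Per length of exon, Plin2 was the most abundant of the 10 transcripts, with a median RPKM (CPM per kilobase of exon) of 155 over the 12 libraries, followed by Agpat2 at 82.5, Cd36 at 42.1 and Gpam at 31.9. G0s2 (18.5) and Plin5 (18.2) came next, then Cidec (9.10), Plin4 (0.514), Cidea (0.354) and Mogat1 (0.0380). Several neighbours in this order were not apart, since Plin2 exceeded Agpat2 in 7 of 12 libraries, Cd36 exceeded Gpam in 7, G0s2 exceeded Plin5 in 7 and Plin4 exceeded Cidea in 5. Cidec exceeded Plin4 in all 12 libraries and Agpat2 exceeded Cd36 in 11. The libraries in which Plin2 exceeded Agpat2 were 5 of the 7 KO and 2 of the 5 WT libraries.

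**Figure D5:**
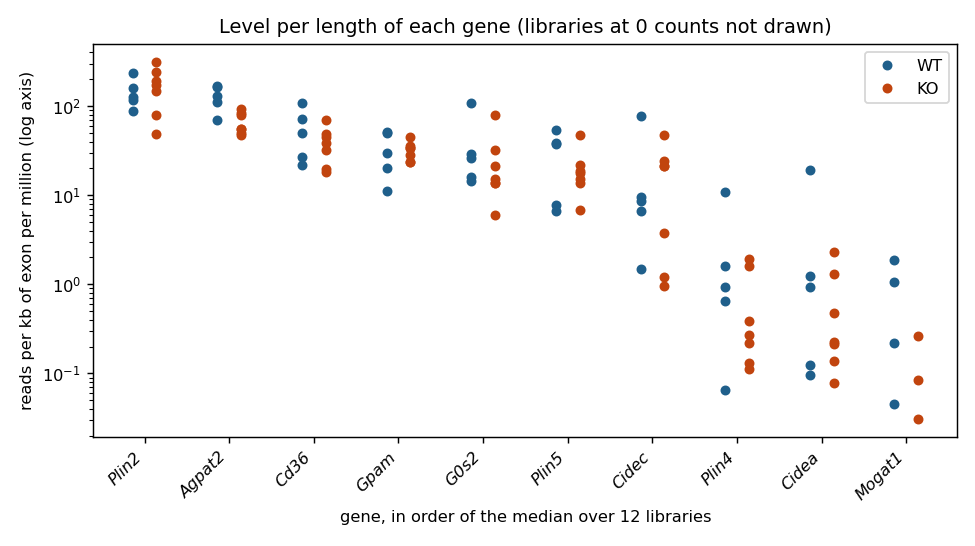
RPKM (CPM per kilobase of exon) in each library on a log axis, with the 10 genes in order of their median over the 12 libraries, WT in blue and KO in orange. The 7 genes from Plin2 to Cidec lie mostly above 1, while Plin4, Cidea and Mogat1 lie lower, and the highest library is WT for every gene except Plin2.

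The rest of the storage pathway showed no called gene in edgeR's test. Among 14 other genes of glycerolipid synthesis tested, 7 were negative and 7 positive. Lpin3, a phosphatidate phosphatase, had the smallest p, with a difference of 0.98 ± 0.23 (SE, edgeR adjusted p = 0.180). It lay higher in all 7 KO libraries (13.8 to 28.3 CPM) than in any WT library (7.30 to 12.7 CPM), as did 0.634% of all genes tested. Dgat1, which makes triglyceride from diacylglycerol, differed by −0.85 ± 0.39 (adjusted p = 0.338). Among 14 other droplet proteins 10 were negative and 4 positive. Bscl2, the seipin of droplet budding, differed by −0.31 ± 0.10 (adjusted p = 0.230), every WT library exceeding 6 of the 7 KO libraries, and Fitm1, which helps droplets form, by −2.55 ± 1.02 (adjusted p = 0.292). Of 10 lipolysis genes 7 were negative, with Ces3b, a liver carboxylesterase, at −3.05 ± 1.17 (adjusted p = 0.277).

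Fatty acid uptake and activation genes were negative in 11 of 15 cases, with the lipoprotein receptor gene Vldlr at 2.02 ± 0.66 (SE, edgeR adjusted p = 0.233) among the positive ones. Of 8 genes of triglyceride-rich lipoprotein export 5 were negative. Apoc3, an inhibitor of triglyceride clearance, lay lower in all 7 KO libraries (102 to 1075 CPM) than in any WT library (1173 to 2640 CPM), as did 0.58% of all genes tested. Its difference was −1.12 ± 0.43 (edgeR adjusted p = 0.277). Of 14 regulators 9 were negative, with Cebpa at −0.72 ± 0.23 (adjusted p = 0.222), while Pparg, the adipogenic receptor, was at 0.60 ± 0.34 (adjusted p = 0.427). PPAR alpha targets outside the 10 genes were positive in 12 of 16 cases with a median of 0.31. That median was negative in 2 of the 28 alternatives, at −0.02 in limma-voom with sample weights and −0.23 in the Xist-high libraries. Cyp4a31, a fatty acid hydroxylase with close copies among which reads may be split, was at 19.0 to 148 CPM in KO and 8.38 to 29.7 CPM in WT, a difference of 2.49 ± 0.48 (adjusted p = 0.170). In all these lists 0 genes were called, as over all genes.

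Among markers of other cell types, 0 were called. Hepatocyte markers were negative in 6 of 8 cases (median −0.12), Kupffer cell and macrophage markers in 5 of 9 (−0.22), endothelial markers in 8 of 8 (−0.64) and stellate cell markers in 7 of 8 (−0.44). Of the adipocyte list only Fabp4 and Adrb3 had enough counts to be tested, and both were negative. All 9 neutrophil markers were positive with a median of 3.51, and their summed level was 1643 CPM in KO replicate 3, 403 in KO replicate 6 and 249 in KO replicate 4, against 22.1 to 50.2 CPM in the other libraries. The 4 Y-linked genes were negative, with a median of −1.44, and split the libraries as Xist did. Their summed level was at most 0.111 CPM in the libraries with high Xist, KO replicates 1, 2, 3, 5 and 6 and WT replicate 4. It was 65.1 to 105 CPM in those with low Xist, KO replicates 4 and 7 and WT replicates 1, 2, 3 and 5. These patterns were unevenly spread over KO and WT, and the labels give no sex. The medians of the hepatocyte, Kupffer cell, stellate cell, adipocyte and Y-linked lists turned positive in at least 1 alternative, and those of the endothelial and neutrophil lists kept their sign in all 28. The part of these markers in the values of the lipid droplet genes was not tested.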

How the data were processed

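Per the labels' protocols, total RNA was extracted with Trizol and made into libraries by Illumina protocols. Per the submitters' processing notes, reads were aligned with HISAT2 to mm10; which program counted reads, with which strand setting, is not given in the sources used here. The deposited table holds the authors' raw read counts per gene symbol. Genotype labels set the groups, and replicates were numbered in accession order, so numbers pair no libraries. No 2 libraries of a group agreed within sampling noise (smallest chi-square per degree of freedom 76.7).

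Genes were kept by filterByExpr (minimum count 10, minimum total 15), leaving 14666 genes with 99.9% of counts. KO was compared with WT in edgeR 4.0.16 (R 4.3.3) by robust quasi-likelihood F-tests after TMM scaling, with Benjamini-Hochberg adjustment over all genes. SE is log2 fold change divided by the root of F. Fits were run on simulated negative binomial counts with known changes, and a condition on recovery was set for edgeR only. The simulation held no outlying library, so it does not address the differences between tools. Alternatives were DESeq2 1.42.0, limma 3.58.1 with and without sample weights, other scalings and filters, covariates (title number range, Xist class, depth class), subsets of libraries and each library left out. The subsets by Xist class and the fit without WT replicate 4 and KO replicate 6 were added after seeing the data. Log2 CPM used a prior count of 2. Exon lengths are unions of GENCODE M21 exons (GRCm38, the assembly of mm10). Gpat3 and Tf were matched through Agpat9 and Trf.

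The 10 genes and the 14 other lists were chosen with earlier results of these data known. Genes named besides these 10, Pck1 and Xist were up to 4 per list with the smallest p, the genes with the most similar pattern, and markers of other cell types. Pparg and Agpat1 fall outside this rule and were named after their values were seen.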

Additional observations from a re-analysis of the deposited data

How the results depend on the processing

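Over all genes, 0 were called in either direction by edgeR. DESeq2 called 247 higher and 242 lower, limma-voom with sample weights 929 and 1192, and without weights 1 and 4. The depth class as covariate gave 1 higher and 2 lower, the title number range 2 lower, the deeper libraries 2 lower, and upper-quartile scaling, no filter and the stricter filter 1 lower each. The Xist-low libraries gave 17 higher and 17 lower, and leaving out WT replicate 4 with KO replicate 6 gave 3 and 15. With 1 library left out, 0 to 14 genes were higher and 0 to 51 lower, the highest counts without KO replicate 6. Of the 10 lipid droplet genes, 1 was called lower by DESeq2 and 1 by limma-voom with weights, Agpat2 in each; with 1 library left out 0 were called, and its adjusted p in edgeR lay between 0.0900 and 0.417. Among the other lists DESeq2 called 11 higher and 1 lower, limma-voom with weights 5 and 14, and the fits with 1 library left out 0 to 2 lower. The cause of these differences between tools was not tested. Signs that turned in at least 1 of the alternatives were those of Gpam, Plin2, Cidec, Cidea, G0s2 and Cd36, while Agpat2, Plin4 and Plin5 were negative in all 28. The count of 2 correlated pairs became 1 with a prior count of 0.5 and 0 in the 7 KO libraries alone. DESeq2 gave no adjusted p for Cidea. No paired analysis was possible because the labels give no replicate numbers shared by the groups. Counts limit Mogat1 and Cidea, whose levels rest on few reads in most libraries, and the low end of Plin4, with 7 counts in WT replicate 1.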

Other observations

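Agpat1, the paralog of Agpat2 that most tissues express, had 1 count in KO replicate 6, 2 in WT replicate 2 and 0 in the other 10 libraries. Its absence from the counts of all but 2 libraries was not followed further, and how reads of that gene were assigned is not given in the sources used here.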
